A study of Mus musculus with 6 samples.

Results

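The genes described here are 10 genes of the pineal gland and of photoreceptors, followed in RNA-seq libraries of mouse hippocampus: *Tph1*, *Aanat*, *Crx*, *Lhx4*, *Sag*, *Gnb3*, *Gngt2*, *Rbp3*, *Aipl1* and *Chrnb4*. They are 10 of the 55421 genes in the count table, and all 10 were found in it by symbol. They were chosen by measured values of these same libraries, namely counts of pineal-type genes that stood out in single libraries, as a check for pineal tissue in single dissections. Their values, including their rows in a fit of SP against vehicle over all genes, are therefore given as a description, and no p-value is given for them. Each library is compared with the other 5.

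The study asked how substance P (SP), a tachykinin neuropeptide, given in the periphery affects the hippocampus. Hippocampal RNA came from 3 mice injected with SP and 3 injected with vehicle, with 1 library per mouse, called SP 1 to 3 and vehicle 1 to 3 here. SP mice received 100 µL of 10 µM SP under the skin for 14 days, and vehicle mice the same volume of saline. All 6 were wild-type C57BL/6N males of 8 to 10 weeks, kept under 12 h of light from 8:00 to 20:00. The hour of tissue collection is not given in the sources used here. The libraries were stranded and made from mRNA, and held 23105903, 24560605 and 27605935 counts for vehicle 1 to 3 and 23608419, 24284625 and 22349964 for SP 1 to 3. At these depths 3 counts correspond to 0.109 to 0.135 CPM, which is each count scaled by the TMM-adjusted size of its library.

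The pineal gland lies on the dorsal midline of the brain, close to the habenula and the subcommissural organ, and makes melatonin at night. Tryptophan is turned into serotonin through tryptophan hydroxylase 1, serotonin is acetylated by the enzyme encoded by *Aanat*, and *Asmt* encodes the methyltransferase of the last step. Pinealocytes share a developmental origin and many genes with retinal photoreceptors, among them the homeobox gene *Crx* and parts of the phototransduction cascade, and mammalian pinealocytes do not themselves respond to light but to noradrenaline from sympathetic fibres.

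SP 2 had the highest level of all 10 genes. Summed over the 10, the level was 5.75, 3.92 and 4.89 CPM in vehicle 1 to 3, 6.09 in SP 1, 132 in SP 2 and 5.79 in SP 3. The 5 other libraries thus lay close together in the sum, and vehicle 2, which carries the same replicate number as SP 2, was the lowest. Single members could vary more among these 5, as did *Rbp3* at 0.0363 to 0.298 CPM and *Tph1* at 0.121 to 0.596 CPM. The sum in SP 2 was 25.1 times that of the other 5 libraries pooled (95% counting interval 23.0 to 27.4, exact binomial), from 3179 counts against 638. The ratio was 14.9 (13.6 to 16.4) without *Tph1* and *Rbp3*, the members with the most counts. Such intervals cover counting error only and not the variation between mice. In bulk tissue, more cells of a type and more RNA per cell cannot be told apart.

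**Figure D1:**
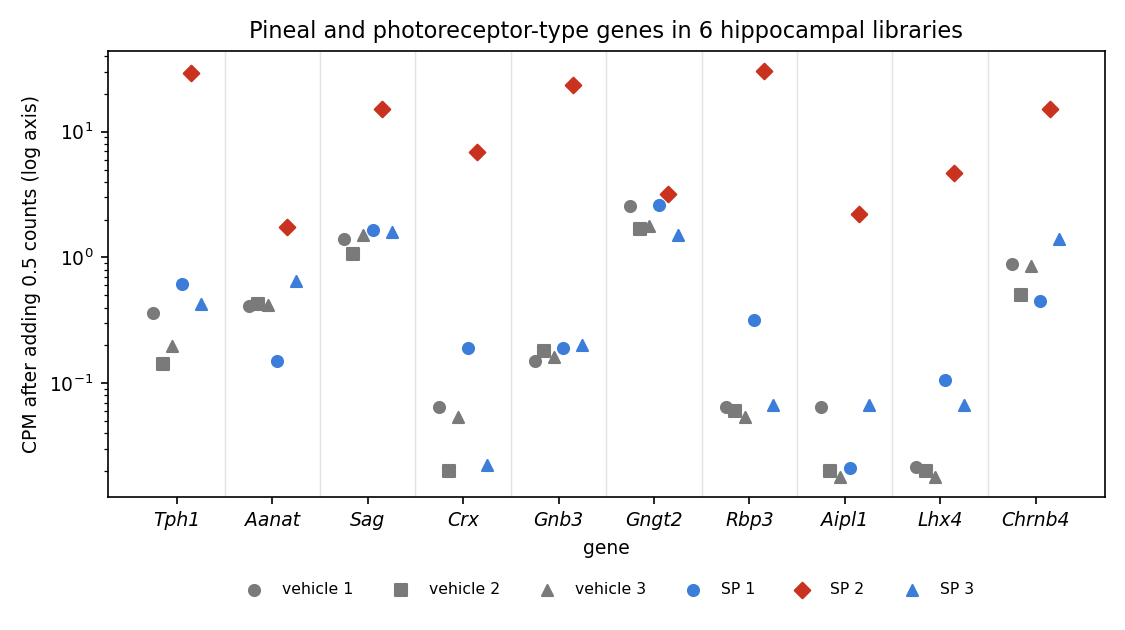
CPM of the 10 pineal and photoreceptor-type genes in each of the 6 libraries, on a log axis, after adding 0.5 counts to each value; grey symbols are vehicle, blue and red symbols SP, and each symbol is 1 mouse. SP 2 (red diamonds) is the highest library for all 10 genes, by a wide margin for 8 of them and a small one for *Gngt2*.

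A gene was counted as high in a library when it had at least 10 counts there and a CPM at least 4 times the highest of the other 5 libraries, which was taken as no lower than the CPM of 3 counts. By this rule 8 of the 10 genes were high in SP 2, and 0 were high in any other library. Among all genes with at least 10 counts in the library, the rule took 53 of 16693 in SP 2 (0.317%), 7 in SP 1 (0.0424%) and 6 in SP 3 (0.0362%). In vehicle 1 to 3 it took 5 (0.0301%), 3 (0.0179%) and 2 (0.0118%). Since the members were selected on these values, nothing is read from the difference between their share and the background. *Aanat*, at 2.77 times the highest other library, and *Gngt2*, at 1.23 times, fell short of the rule. The gene nearest to the threshold from inside was *Cacna2d4* at 4.24. Just outside lay *5430419D17Rik* at 3.88, *Sh2d6* at 3.72, *Rax* at 3.70 and the listed *Cngb1* at 3.59.

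**Figure D2:**
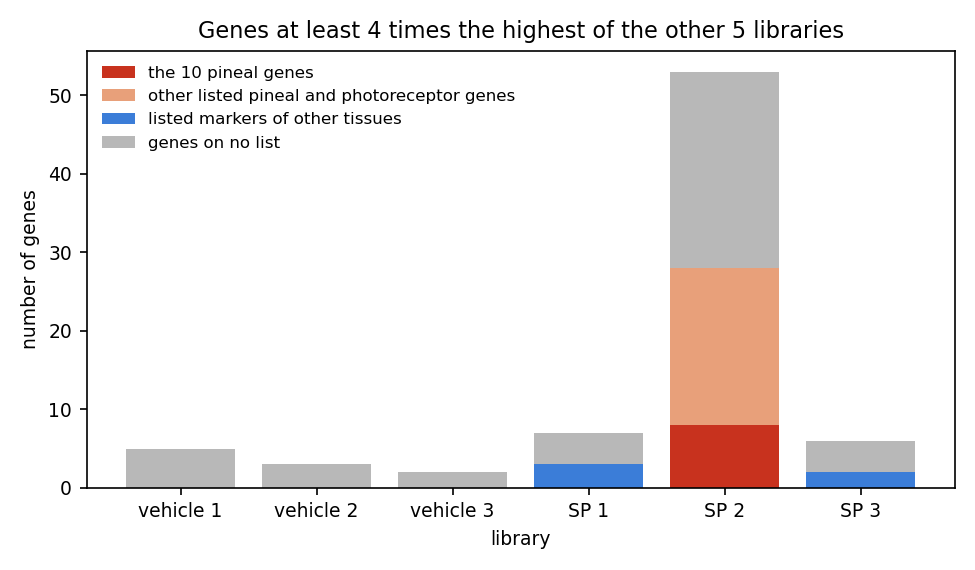
Number of genes per library that had at least 10 counts and at least 4 times the highest CPM of the other 5 libraries, split by gene list. SP 2 holds 53 such genes, 28 of them on the pineal and photoreceptor lists, and the other libraries hold 2 to 7 each.

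Of the melatonin pathway, *Tph1* (chr7, 46644641 to 46672537 on GRCm38, minus strand) encodes the pineal and peripheral form of the rate-limiting enzyme of serotonin synthesis. It had 8, 3 and 5 counts in vehicle 1 to 3, 14 in SP 1, 704 in SP 2 and 9 in SP 3. SP 1 and SP 3 also lay above the 3 vehicle libraries, at 0.596 and 0.404 CPM against 0.121 to 0.344, and SP 2 was at 90.9 times the pooled other 5 libraries (65.8 to 129). *Tph2*, the form used by serotonin neurons, had 17 counts in SP 2 and 18 to 27 in the others. Its ratio in SP 2 was 0.839 (0.471 to 1.41), so that SP 2 did not stand apart for the neuronal form. *Aanat* (chr11, 116586432 to 116597680, plus strand) had 9, 10 and 11 counts in vehicle 1 to 3, 3 in SP 1, 42 in SP 2 and 14 in SP 3. Its ratio in SP 2 was 4.50 (2.90 to 6.97), the smallest of the 10 apart from *Gngt2*.

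The remaining genes of melatonin synthesis were followed from a list of 9. Of these, 1 was past the rule in SP 2: *Asmt*, with 16 counts in SP 2, 2 in SP 3 and 0 in the other 4 libraries. *Gch1*, which encodes the first enzyme of the tetrahydrobiopterin cofactor of *Tph1*, had 146 counts in SP 2 and 25 to 46 elsewhere, or 3.26 times the highest other library. *Ddc*, the decarboxylase that makes serotonin, had 261 in SP 2 and 95 to 144 elsewhere. The other cofactor genes *Pts* and *Spr* stood at 25.4 and 25.8 CPM in SP 2, inside the ranges of the other libraries, and *Qdpr*, the most abundant of the list, at 173 CPM against 115 to 138. Within the list, SP 2 thus stood apart for *Asmt* and to a lesser degree for *Gch1* and *Ddc*. All of these are RNA levels. Neither melatonin nor enzyme activity was measured, and whether mice of this strain make melatonin was not examined here. The melatonin receptor genes *Mtnr1a* and *Mtnr1b* had 0 counts in all 6 libraries, which allows up to 0.135 CPM in the shallowest, and the related *Gpr50* had 23 in SP 2 and 3 to 18 elsewhere.

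The transcription factors of the set are the homeobox genes *Crx*, which drives photoreceptor and pinealocyte genes, and *Lhx4*, a LIM homeobox gene of the developing retina and pineal. *Crx* had 1, 0 and 1 counts in vehicle 1 to 3, 4 in SP 1, 166 in SP 2 and 0 in SP 3, a ratio of 139 (62.7 to 385). *Lhx4* had 0 counts in all vehicle libraries, 2 in SP 1, 112 in SP 2 and 1 in SP 3, a ratio of 188 (62.7 to 925). Both were therefore close to absent outside SP 2. Of 10 other factors listed for pineal and photoreceptor cells, 4 were high in SP 2. *Isl2* had 30 counts there and 0 in every other library, or 50.3-fold against 3 counts over the 5 (lower counting limit 38.5). *Lhx3* had 32 against 0 to 3, *Neurod4* 150 against 7 to 13, and *Bsx* 30 against 2 to 6. *Otx2*, which acts upstream of *Crx* and is also a choroid plexus gene, had 373 counts in SP 2 and was not higher there (84 in SP 1 and 349 to 580 in the vehicle libraries and SP 3). *Nr2e3*, a factor of rods, had 0 counts in SP 2, and *Nrl* had 27, against 15 to 27 elsewhere.

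Because *Crx* itself stood out, the promoters of the set were read for TAATCC, the core motif of Crx and Otx proteins, on both strands. RefSeq promoters on GRCm38.p6 (250 bases before to 50 after the start) were on hand for 7 of the 10 genes, and not for *Aanat*, *Gnb3* and *Gngt2*. The motif was found in 4 of these 7, and in 8.14% of all 27025 genes of the promoter table. It was in none of the windows of *Lhx4*, *Tph1* and *Chrnb4*. The 150 bases before the start of the 4 genes are given 5′ to 3′ on the strand of the gene, with the motif in capitals, which reads GGATTA since every copy lay on the opposite strand. The stretches are chr1:87803530-87803679 (plus strand) for *Sag*, chr7:15879956-15880105 (minus) for *Crx*, chr11:72037510-72037659 (minus) for *Aipl1* and chr14:33953853-33954002 (plus) for *Rbp3*.
Sag: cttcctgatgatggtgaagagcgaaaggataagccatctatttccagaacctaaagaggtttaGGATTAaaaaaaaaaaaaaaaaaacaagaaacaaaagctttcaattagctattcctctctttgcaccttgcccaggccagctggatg
Crx: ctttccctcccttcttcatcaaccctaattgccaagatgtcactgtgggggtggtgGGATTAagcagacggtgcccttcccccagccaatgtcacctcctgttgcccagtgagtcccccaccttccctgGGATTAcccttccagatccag
Aipl1: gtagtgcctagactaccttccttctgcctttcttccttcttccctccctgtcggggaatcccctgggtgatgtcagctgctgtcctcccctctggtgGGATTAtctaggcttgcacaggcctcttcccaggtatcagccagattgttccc
Rbp3: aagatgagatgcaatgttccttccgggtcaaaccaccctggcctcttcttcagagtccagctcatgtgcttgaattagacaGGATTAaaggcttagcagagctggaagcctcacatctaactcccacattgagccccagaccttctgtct
The motif began at −87 in *Sag*, −94 and −21 in *Crx*, −53 in *Aipl1* and −69 in *Rbp3*, counted from the start site, and *Aipl1* held a further copy 10 bases past the start. Among the 53 genes high in SP 2, 35 had a promoter in the table and 11 of those held the motif. Leaving out the members, it was 7 of 28: *Gnat2*, *Guca1a*, *Mpp4*, *Lrit1*, *Cabp5*, *Lactbl1* and *Rpgrip1*. The members and the other genes high in SP 2 were chosen on values of these same libraries. Nothing is therefore read from the difference between their shares and that of all genes. A match describes the letters of the window and not binding, which was not measured.

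Of the phototransduction genes, *Sag* encodes S-antigen, the arrestin that ends signalling by the activated opsin. It had 32, 26 and 41 counts in vehicle 1 to 3, 38 in SP 1, 368 in SP 2 and 35 in SP 3, so that it was present in every library and 10.8 times higher in SP 2 (8.96 to 13.0). *Gnb3* encodes the beta subunit of the cone transducin. It had 3 or 4 counts in each of the other 5 libraries and 562 in SP 2, a ratio of 149 (94.5 to 249). *Gngt2*, the cone gamma subunit, stood out far less in SP 2 than its partner. It had 59, 41 and 49 counts in vehicle 1 to 3, 61 in SP 1, 77 in SP 2 and 33 in SP 3, a ratio of 1.60 (1.22 to 2.07). Its exons overlap *Abi3* on the opposite strand, and whether counting used strand is not given in the sources used here. The groups overlapped for *Gngt2*, and SP 2 lay only a little above SP 1 and vehicle 1. A ratio also depends on the level elsewhere, for *Gngt2* 2.00 CPM in the pooled other 5 libraries, against 3.19 in SP 2.

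Of the 27 other listed phototransduction genes, 7 were past the rule in SP 2: *Gnat2*, *Pde6b*, *Pde6c*, *Pde6g*, *Cngb3*, *Guca1a* and *Grk1*. *Gnat2*, the cone transducin alpha subunit, had 59 counts in SP 2 and 0 to 3 elsewhere. The phosphodiesterase genes gave 234 counts for *Pde6g* (3 to 10 elsewhere), 100 for *Pde6c* (0 to 5) and 99 for *Pde6b* (1 to 9), while *Pde6a* had 1 and *Pde6h* 6, both inside the range of the other libraries. *Cngb3*, a subunit of the cone channel, had 77 counts in SP 2 and 1 in all other libraries together, a ratio of 388 (67.5 to 15508). Its partner *Cnga3* had 10 in SP 2 against 2 to 7, and the rod channel gene *Cnga1* had 0 in all 6 libraries. The rod transducin gene *Gnat1* had 2 in SP 2 and 0 to 4 elsewhere. The cone opsin genes *Opn1sw* and *Opn1mw* had 4 and 1 counts in SP 2, within the 2 to 5 and 2 to 3 of the others or just below them. *Rcvrn* had 8 in SP 2 and 4 to 8 elsewhere.

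*Rbp3* and *Aipl1* belong to the upkeep of photoreceptors. *Rbp3* encodes the retinoid-binding protein of the space between photoreceptors and pigment epithelium, and had 1 count in each vehicle library and in SP 3, 7 in SP 1 and 732 in SP 2. Its ratio of 335 (186 to 674) was the largest of the 10. *Aipl1*, a chaperone for the photoreceptor phosphodiesterase, had 1 count in vehicle 1 and in SP 3, 0 in vehicle 2, vehicle 3 and SP 1, and 53 in SP 2, a ratio of 133 (35.2 to 1130). Its client genes *Pde6b* and *Pde6c* were among those high in the same library. Of 22 other listed genes of photoreceptor structure, 7 were high in SP 2. *Tulp1* had 188 counts against 2 to 4, *Prph2* 75 against 0 to 2, *Cplx4* 61 against 0 to 2 and *Cacna1f* 64 against 1 to 9. *Rp1l1* had 30 counts in SP 2 and 0 elsewhere (50.3-fold against 3 counts, lower counting limit 38.5), and *Cacna2d4* 186 against 32 to 47. *Mpp4* had 375 against 32 to 53, but 6.10% of its 31-base stretches also occur in other genes, and its value is less certain. In contrast, *Rp1*, *Cabp4* and *Samd7* had 0 counts in SP 2 and up to 8, 3 and 2 in the others.

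*Chrnb4* encodes the beta 4 subunit of nicotinic acetylcholine receptors, which is also abundant in the medial habenula. It had 20, 12 and 23 counts in vehicle 1 to 3, 10 in SP 1, 363 in SP 2 and 31 in SP 3, a ratio of 19.0 (15.2 to 24.1). *Chrna3*, its neighbour on chromosome 9, was the 1 gene past the rule among 13 listed for pineal receptors and cAMP-induced genes, with 117 counts in SP 2 against 7 to 17. *Chrna5*, the remaining gene of this cluster, had 132 against 88 to 124. The adrenergic receptor gene *Adrb1* and the others of this list did not pass the rule, and the most abundant, *Per1*, lay at 68.0 CPM in SP 2 against 62.8 to 78.0.

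Over all 84 pathway genes that are not members, 20 were high in SP 2 and 0 in any other library. SP 2 was the highest library for 48 of the 81 with a count, and for 5897 of the 28039 such genes in the whole table. Over these 81 the median log2 ratio of SP 2 to the pooled other libraries was 0.59, with genes at 0 elsewhere set against 3 counts and genes at 0 in SP 2 ranked lowest, and over the 28039 it was −0.03. For the 10 members it was 6.78, which their choice fixes. By list the median ran from 0.05 for receptors and cAMP-induced genes and 0.42 for transcription factors to 0.43 for melatonin synthesis, 1.08 for phototransduction and 1.48 for photoreceptor structure. The 1 receptor gene with a count, *Gpr50*, stood at 1.18. The list of 84 was drawn up with earlier results of these data in view, and so its count is a description too.

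**Figure D3:**
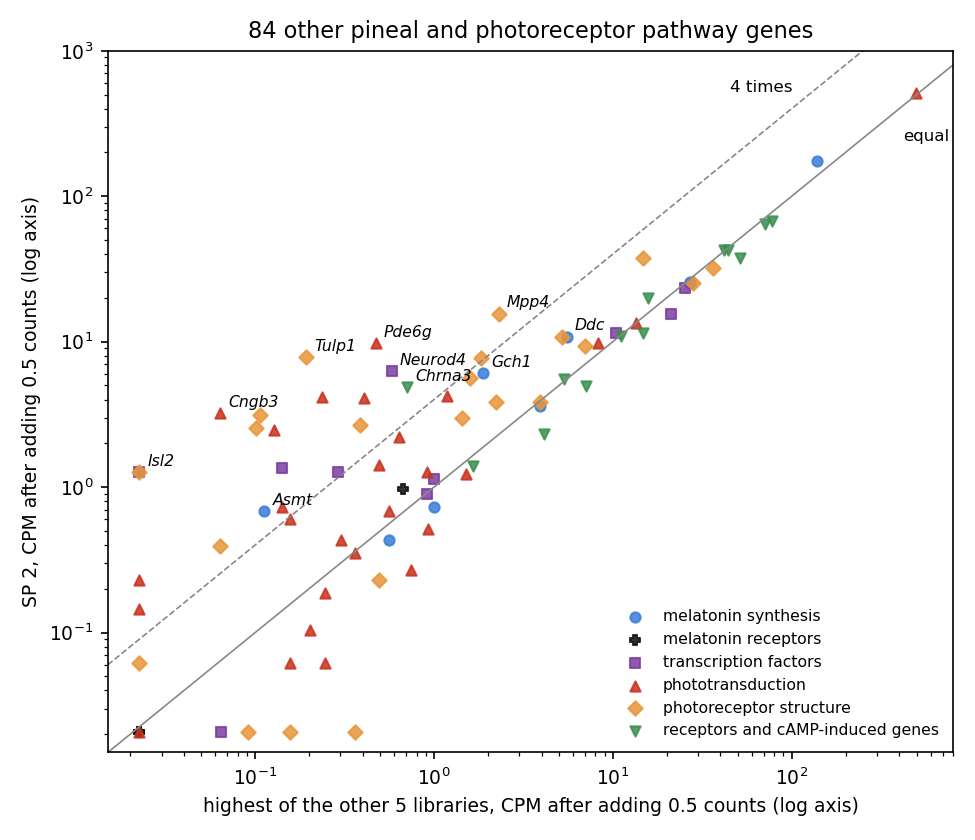
CPM in SP 2 against the highest CPM of the other 5 libraries for 84 pineal and photoreceptor pathway genes, both on log axes after adding 0.5 counts; colours and symbols give the role. The solid line marks equal levels and the dashed line 4 times; 20 genes passed the rule, which used CPM without the added counts and asked for at least 10 counts in SP 2.

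Levels can be compared between genes only per length of their exons. The length used merges the exons of all annotated transcripts of a gene. It can exceed that of the transcripts present, and so the order is approximate. In SP 2 the members ran from 8.86 CPM per kb of merged exons for *Gnb3*, 5.73 for *Rbp3*, 4.73 for *Tph1* and 4.04 for *Chrnb4*, over 2.18 for *Crx*, 1.71 for *Sag* and 1.70 for *Gngt2*, to 1.05 for *Aanat*, 0.809 for *Lhx4* and 0.696 for *Aipl1*. In the pooled other 5 libraries the order was different. *Gngt2* led there with 1.07 CPM per kb, followed by *Aanat* with 0.233, *Chrnb4* with 0.212 and *Sag* with 0.159, and the lowest was *Lhx4* with 0.00431. The members highest outside SP 2 were thus those with the smallest ratios. Each member shared at most 5.32% of its 31-base stretches with transcripts of other genes, the most in *Sag*.

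Other genes with the same pattern were ranked by the ratio of SP 2 to the pooled other 5 libraries, over 6 libraries. The rule took 25 genes on no list in SP 2. First came *Gm4792*, with 29 counts in SP 2 and 1 elsewhere. *Tac4*, the hemokinin-1 gene and thus a tachykinin gene like the one encoding SP, was next with 54 counts in SP 2, 1 in vehicle 3, 1 in SP 3 and 0 in the other 3, a ratio of 136 (35.9 to 1151). *Mgarp*, which encodes a mitochondrial protein, had 91 against 0 to 2, and the antisense gene *1700042O10Rik* 17 against 0 or 1. *Lrit1*, a photoreceptor synapse gene, had 43 counts in SP 2 and 0 in all others, or 72.2-fold against 3 counts (lower counting limit 56.2). *Cabp5*, a retinal calcium-binding protein gene, had 27 against 0 or 1. The rest of the first 15 were *Spink4*, *Gm12802*, *F2rl1*, *Gm15725*, *Glb1l3*, *Gckr*, *Gabrr3*, *Lactbl1* and *Mogat1*, with ratios from 17.8 for *Mogat1* to 48.7 for *Spink4*. The ratio of *Spink4*, which had 0 counts elsewhere, is also against 3 counts (lower counting limit 37.1). *Gm15725* shares its whole sequence with other genes, *Lrrc58* among them, and its value is uncertain.

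Markers of neighbouring tissues were read for the same libraries. For the habenula, 4 of 6 genes reached 10 counts in SP 2 and 0 passed the rule, and the summed level was 43.1 CPM there and 40.0 to 46.8 in the others. Most of this came from *Nwd2*, and *Gpr151* and *Pou4f1*, markers of its neurons, had 12 and 4 counts in SP 2 against 10 to 20 and 0 to 4. Within the list, *Gng8* was highest in SP 2, at 1.62 CPM against 1.02 to 1.29, and *Chrnb3* lowest, at 0.207 against 0.359 to 0.558. *Sspo*, the marker of the subcommissural organ, was highest in SP 2 at 6.14 CPM, against 2.99 to 4.22. Retinal genes outside photoreceptors summed to 1.16 CPM in SP 2 and 0.798 to 1.09 elsewhere, and 0 of the 7 reached 10 counts in SP 2, so that the rule could not apply. The bipolar cell genes *Grm6* and *Trpm1* had 6 and 8 counts in SP 2, against 0 and 0 to 3 in the others. For the raphe, *Slc6a4* and *Fev* had 0 counts in SP 2. Thalamic genes, led by *Prkcd*, summed to 66.3 CPM in SP 2 and 53.2 to 80.7 elsewhere.

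Other lists differed between libraries. Choroid plexus genes, of which *Ttr* made up most, summed to 2836 CPM in SP 2, below the 3848 to 4818 of the vehicle libraries and SP 3 and far above the 169 of SP 1. Leptomeningeal genes summed to 207 CPM in SP 2, 236 in SP 1 and 311 to 404 in the rest, and the genes of this list differed in rank. *Igf2*, the most abundant, was lowest in SP 1 (93.3 CPM, against 125 in SP 2), *Dcn* was lowest in SP 2 (24.8 against 70.3 to 86.5), and *Lum* was highest there (9.66 against 5.92 to 9.03). Cerebellar genes, with *Car8* the most abundant, summed to 19.2 CPM in SP 2, 47.9 in SP 1, 11.2 in SP 3 and 8.12 to 8.96 in the vehicle libraries. The midbrain and hindbrain border genes *Cnpy1* and *En2* gave 7.22 and 2.82 CPM of this in SP 2 and 4.81 and 1.92 in SP 1, and *Car8* gave 6.76 in SP 2. The granule cell gene *Gabra6* had 4 counts in SP 2 and 93 in SP 1. Pituitary genes stood at 0.373 CPM in SP 2, with *Gh* at 0. The 10 hippocampal genes, led by *Zbtb20*, were all present in SP 2 and summed to 1214 CPM, against 974 to 1072 in the others. The part of these tissues in the values of the 10 genes was not tested.

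**Figure D4:**
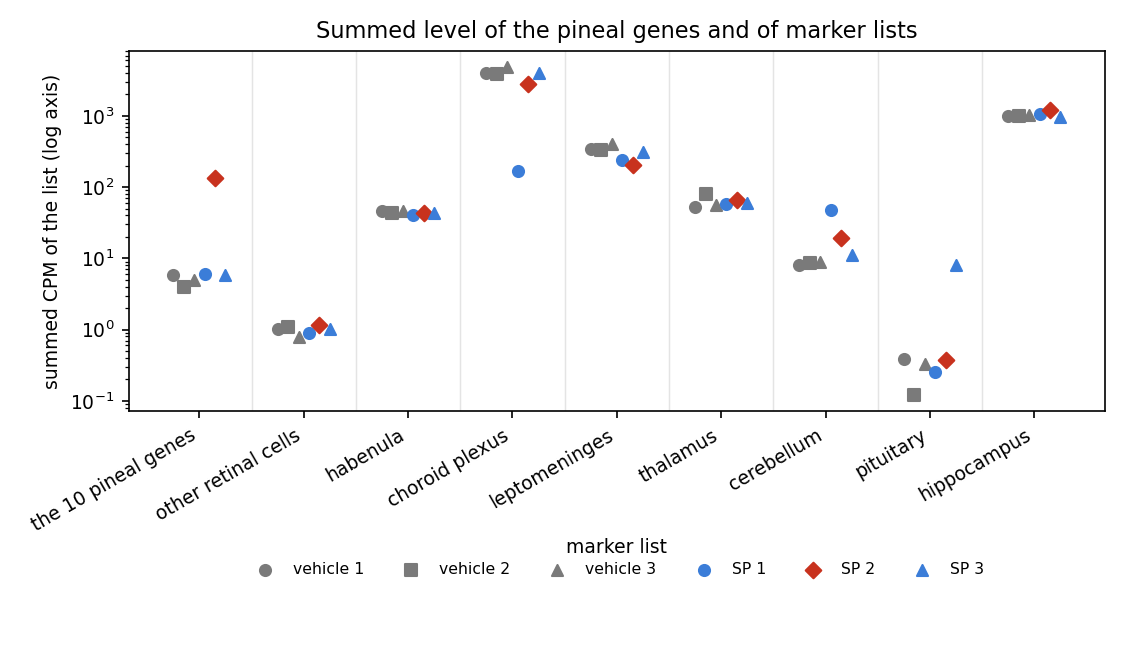
Summed CPM, on a log axis, of the 10 pineal genes and of marker lists of other tissues in each library; each symbol is 1 mouse, and the lists of the subcommissural organ and the raphe are left out. The pineal genes are at 132 CPM in SP 2 and 3.92 to 6.09 elsewhere, while the habenular list lies at 40.0 to 46.8 in all 6.

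The SP and vehicle groups were compared across all genes with edgeR's quasi-likelihood test, with the replicate number as a block and Benjamini-Hochberg adjustment. Of 17069 genes tested, 5 (0.0293%) passed an FDR of 0.1 and an absolute log2 fold change of 0.3. They were *Rpl35a-ps3*, *Gm20431* and *Gm10409*, which were higher in SP, and *Gm3020* and *Fam205a4*, which were lower. These were named after their values were seen, and they are on none of the lists. The groups overlapped at 0 CPM for *Rpl35a-ps3* (0 in SP 3), *Gm20431* (0 in SP 1) and *Fam205a4* (0 in vehicle 3). *Gm10409* was at 0 in every vehicle library and *Gm3020* in every SP library, and these genes had counts in all libraries of the opposite group. The number of called genes was 2 with no replicate block and 4 when SP 2 was also left out of that fit. It was 9, 13 and 36 without the mice of replicate 1, 2 and 3. Of the 10 pineal genes 5 passed the filter on low counts, and 0 of these were among the 5. DESeq2 gave no adjusted p to any of them with the block and to 2 without it, which were not called. Since the members were selected on these libraries, nothing is read from these counts. Of the 84 pathway genes 50 were tested and 0 called, with 7 at an unadjusted p under 0.05, beside 1720 of all 17069 genes. DESeq2 called 0 of 20 with the block and 1 of 29 without it, beside 36 of 11443 and 133 of 13096 over all genes. Their median log2 fold change in edgeR was 0.09, against 0.00 over all genes tested.

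The fitted values of the 5 pineal genes that passed the filter are a description as well. For *Tph1* the mean was 0.215 ± 0.115 CPM in vehicle and 10.1 ± 16.6 in SP (SD, n = 3 each), and the log2 fold change was 4.97 ± 1.09 (SE) with the block. The fit without SP 2 has no block, and so each value from it is given after the value of all 6 libraries with no block. For *Tph1* these were 5.55 ± 1.75 and 1.22 ± 0.54. *Chrnb4* had 2.11 ± 0.94 with the block, 2.95 ± 1.10 with no block and 0.31 ± 0.49 without SP 2. *Sag* had 1.60 ± 0.70, 2.24 ± 0.84 and 0.29 ± 0.25 in the same order, *Aanat* 0.85 ± 0.59, 1.07 ± 0.70 and −0.09 ± 0.60, and *Gngt2* 0.26 ± 0.26, 0.29 ± 0.29 and 0.05 ± 0.29. With no filter on low counts, 384 of 28039 genes were called (1.37%), and 8 of the 10 pineal genes were among them. Their direction and their calls were fixed by the choice of genes that stood out in a single library, here an SP library, and are no test of SP. SP 2 alone set the SP mean of genes such as *Gnb3*, for which the SP libraries stood at 0.170, 23.3 and 0.179 CPM and the vehicle libraries at 0.129, 0.162 and 0.145.

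**Figure D5:**
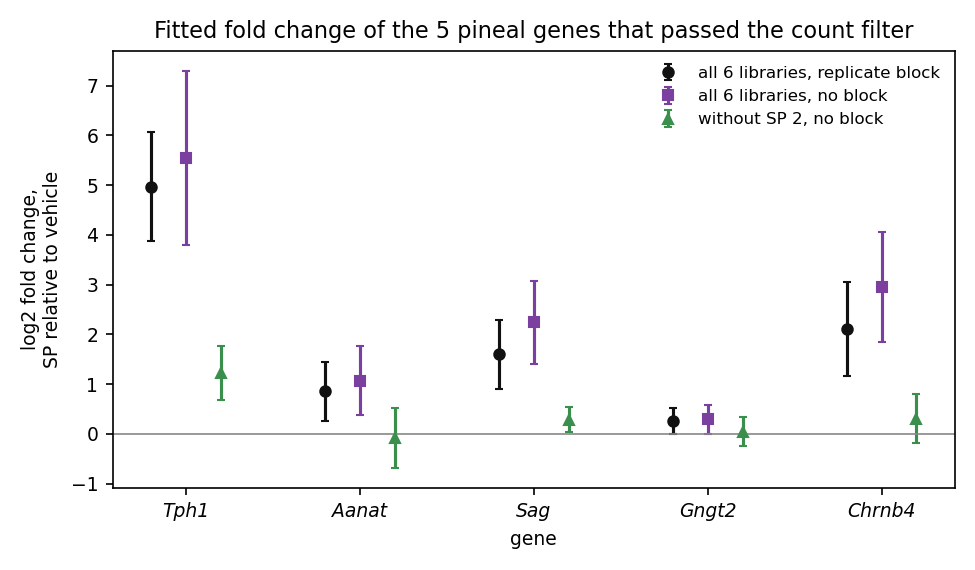
Log2 fold change of SP relative to vehicle for the 5 pineal genes that passed the filter on low counts, from edgeR; bars are standard errors. With all 6 libraries *Tph1* stands at 4.97 with the block and 5.55 with no block, and without SP 2, also with no block, at 1.22; the other 4 genes lie between −0.09 and 0.31 without SP 2.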

How the data were processed

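The deposited table holds estimated counts per gene for 6 hippocampal libraries; the authors trimmed reads with Trim Galore, aligned them to GRCm38 with STAR and quantified genes with Salmon. The annotation release and the use of strand in counting are not given in the sources used here. Of the values 9.77% were not whole, and all were rounded. CPM were computed from TMM-scaled library sizes (factors 0.993 to 1.01). Groups were compared with edgeR 4.0.16 in R 4.3.3 (filterByExpr with a minimum count of 10 and a total of 15, glmQLFit and glmQLFTest), with DESeq2 1.42.0 as an alternative. The functions were tested on simulated data. Ratios of counts carry exact binomial (Clopper-Pearson) intervals of 95%. A gene at 0 in the other 5 libraries was compared with 3 counts over those 5. That ratio is a stand-in, and the bound is the lower counting limit, which was computed from the 0 counts. Exons and positions came from GENCODE M21 on GRCm38, and promoters from RefSeq.

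The labels call the replicate number a batch, so it was kept as a block that pairs the mice. Deviations from the group means correlated across 17069 genes by 0.0118, −0.0798 and 0.0385 (Pearson's r) within the pairs numbered 1 to 3. No pair of libraries agreed within sampling noise.

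The genes named are the 10 pineal genes, the listed pathway genes past the rule for 1 library, up to 15 further genes past it for SP 2 by the largest ratio, the most abundant gene of each tissue list, and genes past the rule there. Some genes that this rule or the lists would name are not reported here. Others were named for their role in a list after their values were seen. The members and the lists were chosen with earlier results of these data known.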

Additional observations from a re-analysis of the deposited data

How the results depend on the processing

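The number of pineal genes high in SP 2 was 8 or 9 under all 11 alternatives of the rule, namely other folds, count minima and scalings and each comparison library left out in turn. The last of these was chosen after seeing the data. The number of all genes high in SP 2 became 106 with a minimum of 2 times and 32 with 8 times, and was within 1.5 times of 53 under the other 9. The summed ratio stayed between 24.9 and 25.1 with relative log expression, total counts or unrounded counts. The calls between SP and vehicle moved more. With no replicate block, edgeR called 2 genes instead of the 5 of the paired fit, and the block changed no call among the pineal and pathway genes. With no filter on low counts it called 384 genes, with 11 pathway genes and 8 pineal genes, whose direction their choice fixes. DESeq2 called 36 of 11443 genes with the block, 0 of them pathway genes, and 133 of 13096 without it, 1 of them a pathway gene, *Adra1d*. It gave no adjusted p to any pineal gene with the block and to 2 without it. Leaving out a replicate number, or SP 2 alone in a fit with no block, gave 4 to 36 called genes, and 0 pineal or pathway genes. The log2 fold change of *Aanat* was 1.07 with no block, −0.086 (SE 0.598) without SP 2, also with no block, and 1.46 without replicate 1. That of *Gngt2* ranged from −0.10 without replicate 2 to 0.48 without replicate 3. The cause of the other shifts was not tested. At these depths values under 0.135 CPM rest on 3 counts or fewer.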

Other observations

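SP 1 and SP 3 stood apart for genes of other tissues. In SP 1 the cerebellar genes *Cbln3* (247 counts, 8 to 28 elsewhere), *Fat2* (161, 9 to 32) and *Gabra6* (93, 0 to 4) were at least 4 times the highest other library. In the same library the choroid plexus gene *Ttr* was at 125 CPM, against 2540 to 4297 in the other 5. *Otx2* and *Abca4*, both on the pineal and photoreceptor lists, were also lowest in SP 1, at 3.58 and 2.90 CPM, against 14.8 and 27.3 in the next lowest library. In SP 3 the pituitary hormone genes *Gh* and *Prl* had 153 and 17 counts, against 0 to 8 and 0 or 1 elsewhere. The vehicle libraries held 0 listed genes past the same rule.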
